A study of Oryctolagus cuniculus with 35 samples.

Results

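The genes described are the heat shock proteins, molecular chaperones and co-chaperones of the rabbit lung. They were chosen by gene name from the deposited tables: names beginning with HSPA, HSPB, HSPD, HSPE, HSPH, HSP90, DNAJA, DNAJB, DNAJC, CCT, TCP1, FKBP, PDIA, BAG, HSF or STIP1, with 1 HSP90 gene left out of the rule. Of 16304 genes with a symbol, 89 names matched, and 68 of these had at least 1 read and are the members. The other 21 matching names were listed at 0 in all 35 libraries. Among the members, TCP11, TCP11L1, TCP11L2, CCT8L2 and HSPBAP1 match by name and are not counted here as chaperones or co-chaperones of a family. HSPB11 carries a small heat shock protein symbol and is also known as a subunit of the intraflagellar transport machinery of cilia.

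The samples are lung RNA of 35 rabbits of the New Zealand strain, 7 in each of 5 groups and 1 sequencing library for every animal. The healthy group received NaCl. The other 4 groups had pneumococcal pneumonia together with adverse mechanical ventilation and received, 4 h after the bacteria were given, NaCl, mesenchymal stem cells (MSC) from human umbilical cord at 3000000 cells per kg into a vein, the cephalosporin antibiotic ceftaroline (given as ceftaroline-fosamil) at 20 mg per kg into a muscle, or ceftaroline and MSC together. Autopsy, when the lung was sampled, came 24 h after the bacteria or at an earlier death. The labels do not say which rabbits died earlier. Infection and ventilation always occur together in these groups, so their parts cannot be told apart. The study compared NaCl with healthy, MSC with NaCl, ceftaroline with NaCl, and ceftaroline plus MSC with ceftaroline, and the same order of subtraction is used for every difference below.

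Chaperones bind unfolded proteins and help them fold, refold or reach a compartment. HSP70 proteins work in cycles of ATP use: J-domain proteins bring substrate and start ATP hydrolysis, and nucleotide exchange factors such as BAG and HSP110 proteins end the cycle. Heat shock factors raise cytosolic chaperone genes when proteins unfold in the cytosol, while a separate response raises the chaperones, J-domain proteins and disulfide isomerases of the endoplasmic reticulum (ER) when secretory proteins fail to fold. The cytosolic chaperonin, a ring of TCP1 and CCT subunits, folds actin and tubulin among others, and FKBP proteins are peptidyl-prolyl isomerases, some of which assist HSP90.

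Several of the best known chaperones could not be followed. HSF1, HSPA5 (the main ER chaperone), HSP90AA1, HSPH1 and STIP1 were listed at 0 in every library, which says nothing of their expression in the lung. HSP90AB1, HSPB1, HSPD1, HSPE1 and DNAJB1 were not analysed here, since no row carries those names, and neither the HSP90 family nor the mitochondrial chaperonin had a member with reads. HSP70 genes have near-identical copies, and how reads shared by copies were counted is not given in the sources used here, so values of HSPA8 and HSPA2 are uncertain to that extent.

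Recovered reads per library ran from 7567008 to 33209729. The lung marker list fell short of its defining genes: SFTPC, SFTPD, ABCA3, SCGB1A1 and CLDN5 were listed at 0, and the 7 detected markers of 15 summed to a median of 20636 in healthy and 8626 in NaCl, in reads per 1000000 (RPM) scaled by trimmed mean of M values (TMM), a scale common to all 35 libraries. The summed level of 8 detected neutrophil markers of 13 ran from 1316 to 9950 in healthy and from 14961 to 140423 in NaCl, with CSF3R and MMP9 listed at 0, and its median was 28722 with MSC, 27553 with ceftaroline and 10493 with both. The 8 detected macrophage and monocyte markers of 10, with ITGAM listed at 0, summed to a median of 530 in healthy and 2459 in NaCl. Their median was 2018 with MSC, 2226 with ceftaroline and 1632 with both. In bulk tissue, fewer cells of a type and less RNA per cell cannot be told apart, and the part of these cell markers in the results below was not tested. The 50 genes with most reads took a median of 31.9% of reads in NaCl and 22.2% in healthy, so the scaling matters: scaled by total reads in place of size factors, the median log2 difference over all genes moved from 0.00 to -0.45 in the disease comparison. Sample titles end in PD or PG in 5 healthy and 3 NaCl libraries and in MSC replicates 6 and 7. No library that received ceftaroline has an ending, so in that comparison the endings stand on NaCl alone. What these letters mean is not given. The endings in NaCl and MSC are all PG, while the healthy ones are PD except in replicate 6. Subsets by title ending take PD and PG together, so they do not compare like endings. A mark S00 in the file labels stands on all 7 healthy libraries and, of the diseased ones, on NaCl replicate 2 alone, so whatever it marks cannot be told apart from disease.

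Between NaCl and healthy, 38 of the 60 members that could be tested were called different, by the rule given next. The other 22 were not called, beside 3757 of all 9545 genes tested, so the total lay near the share of all genes. A member was tested where at least 7 of the 14 libraries had 10 or more normalized reads, that is, reads divided by the library's size factor as deposited. In limma's test on log2(normalized reads + 1), with calls made where the p adjusted after Benjamini and Hochberg was under 0.05, 30 members were higher in NaCl than in healthy, against 29.7% of all 9545 genes tested. Another 8 were lower, against 30.9% of all genes. The median log2 difference was 0.39 over the members and 0.00 over all genes. For 22 members every NaCl library lay above every healthy library, which held for 14.7% of all genes, and for 4 members every NaCl library lay below, against 15.2%. Scaled by total reads, 23 members were called higher and 18 lower, against 15.3% and 45.4% of 9608 genes tested on that scale, with a member median of -0.07, so the direction of the members' median depends on the scaling, while it stood above the median of all genes under each. In the libraries without a title ending, 26 members were called higher and 5 lower, against 20.6% and 16.8% of all genes.

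**Figure D1:**
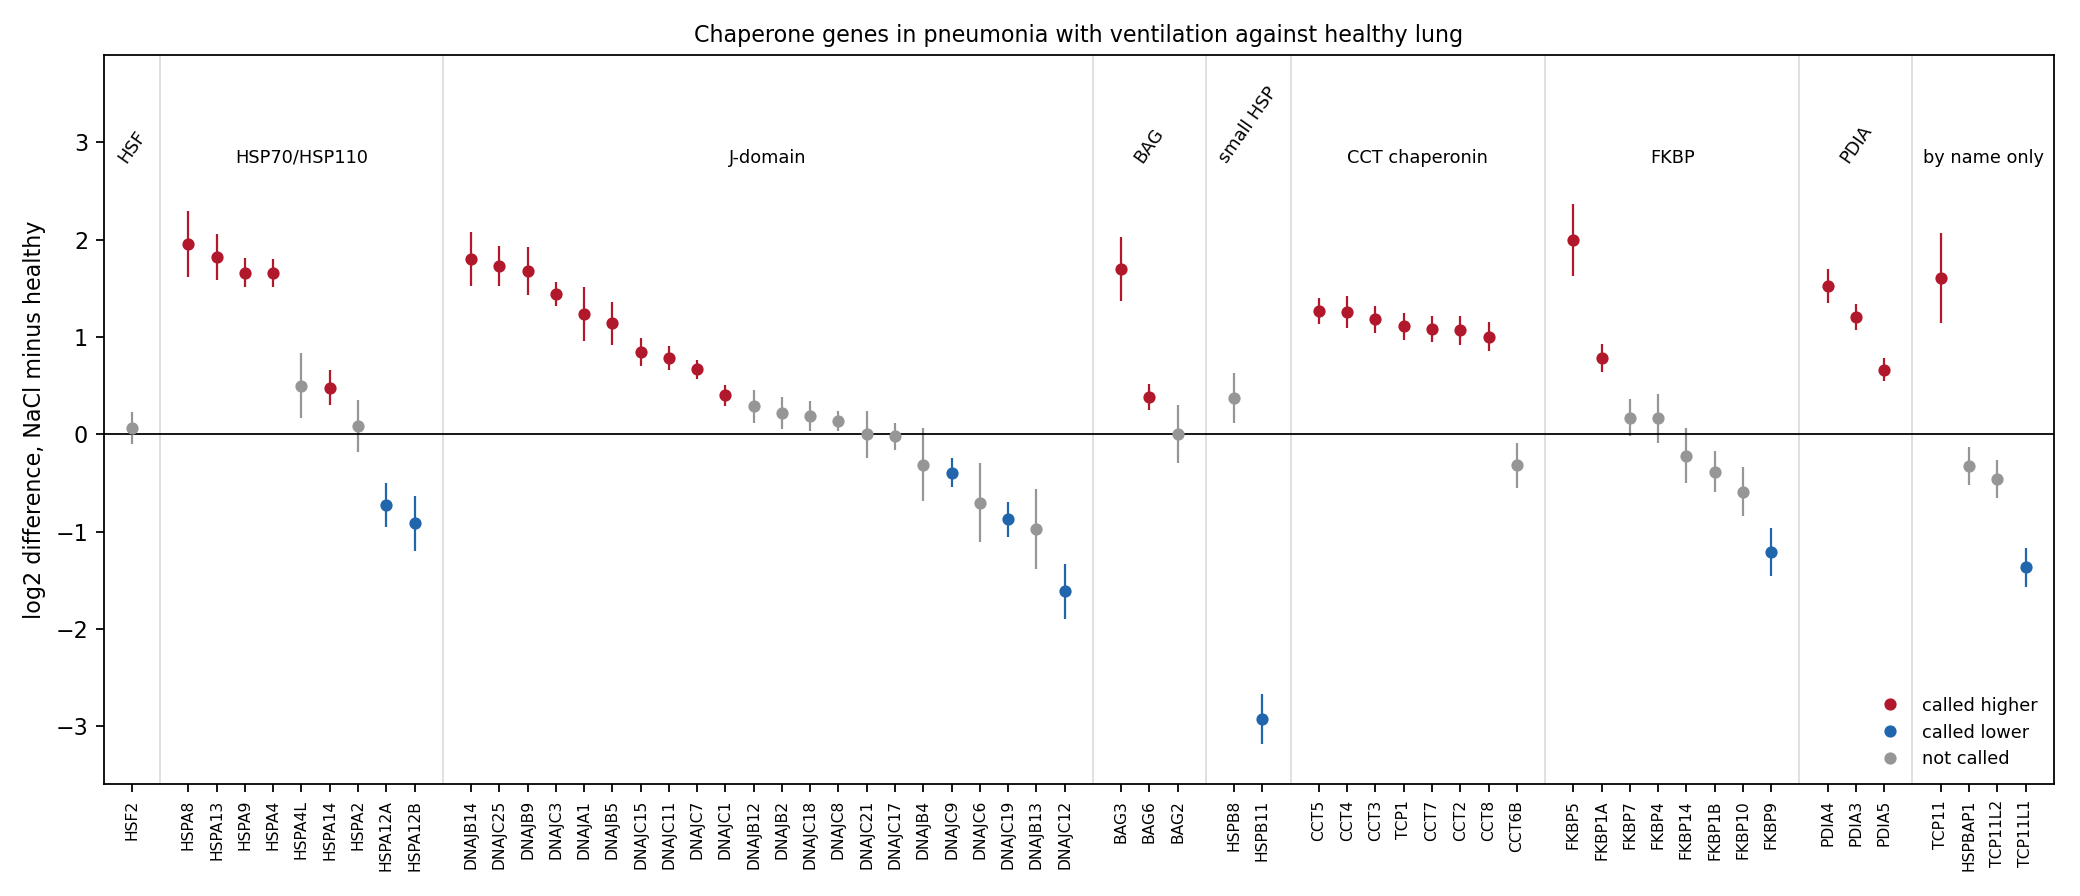
Log2 difference between NaCl and healthy for each of the 60 tested members (vertical axis, log2 of normalized reads + 1; points are estimates, bars 1 standard error from limma, 7 libraries a group), ordered by family along the horizontal axis and coloured by whether the gene was called. The 7 called subunits of the chaperonin lie close together, between 1.00 and 1.27, while HSP70 and J-domain genes spread on both sides of 0; scaled by total reads, BAG6 and DNAJC1 fall to just under 0.

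Of the heat shock factors, HSF2 was the only member with enough reads for the test. Its normalized reads ran from 216 through a median of 325 to 400 in healthy and from 215 through 335 to 429 in NaCl, and the groups overlapped along their whole range. The log2 difference was 0.07 ± 0.17 (SE) with a limma adjusted p of 0.75, and it was -0.39 when scaled by total reads. HSF4 had 84 reads in the healthy group in all and 21 in NaCl, too few for the test.

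The HSP70 and HSP110 genes included some of the largest changes: of 9 tested members, 5 were higher in NaCl, 2 were lower and 2 were not called. Their median log2 difference was 0.50. The shares of all genes, 29.7% higher and 30.9% lower, stand beside this and every family count below. Scaled by total reads, 4 were higher and 2 lower, with a median of 0.05, beside 15.3% and 45.4% of all genes. HSPA8, the constitutive HSP70 of the cytosol, had 69.3 to 231 normalized reads in healthy (median 156) and 273 to 1178 in NaCl (median 730). Every NaCl library lay above every healthy library, yet the NaCl libraries differed among themselves by more than the healthy ones. HSPA8 rose by 1.95 ± 0.34 (SE) on the log2 scale, with a limma adjusted p of 0.00015. With scaling by total reads it was higher by 1.50.

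HSPA4, an HSP110-type exchange factor for HSP70, went from 1028 to 1322 normalized reads in healthy (median 1141) to 2397 to 4390 in NaCl (median 3860). It rose by 1.66 ± 0.14 (SE; limma adjusted p = 1.7e-07), without overlap between the groups. HSPA9, the HSP70 of the mitochondrial matrix, went from 496 to 789 in healthy (median 625) to 1494 to 2676 in NaCl (median 2028), again with no overlap. Its log2 difference was also 1.66, ± 0.15 (SE; limma adjusted p = 2.8e-07). HSPA13, a small HSP70-like protein of the ER and its vesicles, went from 178 to 519 (median 292) to 749 to 1681 (median 1134), and rose by 1.82 ± 0.24 (SE; limma adjusted p = 9.8e-06). In each of these 3 genes the lowest NaCl library stood above the highest healthy library. HSPA14, an HSP70 that works at the ribosome, was called at 0.48 ± 0.18 (SE; limma adjusted p = 0.031), and that call was lost without healthy replicate 1, 3, 5 or 7 or NaCl replicate 5 or 6, with log2 differences from 0.39 to 0.46, and scaled by total reads (0.02).

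The HSP70 genes that fell were the atypical, distant members of the family. HSPA12B, known from endothelial cells, had 622 to 1096 normalized reads in healthy (median 895) and 184 to 808 in NaCl (median 482). The ranges overlapped, and the gene fell by 0.91 ± 0.28 (SE) on the log2 scale (limma adjusted p = 0.011). HSPA12A fell by 0.73 ± 0.23 (SE; limma adjusted p = 0.011), from a median of 61.1 to 32.7, also with overlap. Within libraries whose titles carry an ending, HSPA12B differed by -0.20 (limma adjusted p = 0.38), and within those without one by -1.58. HSPA12A was called in neither subset, at -0.57 and -0.80. HSPA2, best known from the testis, and HSPA4L were not called.

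Among J-domain proteins, 10 of 22 tested members were higher in NaCl, 3 were lower and 9 were not called, and scaled by total reads 7 were higher and 8 lower, beside the 15.3% and 45.4% of all genes on that scale. Of the 4 largest rises, those of DNAJB14, DNAJB9 and DNAJC3 belong to proteins of the ER. They stand here for the size of their rise, and the J-domain genes of the ER were not compared as a set. DNAJB9, an ER partner of HSPA5, had 543 to 1717 normalized reads in healthy (median 940) and 2051 to 4831 in NaCl (median 3616), and rose by 1.68 ± 0.25 (SE; limma adjusted p = 3.5e-05). DNAJC3, an ER co-chaperone that also restrains the kinase PERK, went from 529 to 817 (median 667) to 1631 to 2159 (median 1793), a rise of 1.44 ± 0.12 (SE; limma adjusted p = 2.0e-07). DNAJB14, anchored in the ER membrane, went from 34.7 to 64.1 (median 51.5) to 95.2 to 318 (median 209), a rise of 1.80 ± 0.27 (SE; limma adjusted p = 4.1e-05). All 3 genes separated the groups completely.

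DNAJC25 rose by 1.73 ± 0.20 (SE; limma adjusted p = 3.7e-06), from a median of 46.3 to 160 normalized reads, with no overlap. In the cytosol, DNAJA1, a general HSP70 partner, had 92.5 to 250 normalized reads in healthy (median 136) and 194 to 579 in NaCl (median 364). Its ranges overlapped, and it rose by 1.24 ± 0.28 (SE; limma adjusted p = 0.0012). DNAJB5 rose by 1.14, DNAJC15, a J-domain protein of the mitochondrial inner membrane, by 0.84, DNAJC11, also mitochondrial, by 0.78, DNAJC7 by 0.67 and DNAJC1 by 0.40. With total-read scaling, DNAJC11 (0.33) and DNAJC7 (0.21) were no longer called, and DNAJC1 stood at -0.06.

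The J-domain genes that fell have other known roles. DNAJC12, a partner of the aromatic amino acid hydroxylases, had 316 to 577 normalized reads in healthy (median 479) and 63.7 to 269 in NaCl (median 149). It fell by 1.62 ± 0.28 (SE; limma adjusted p = 0.00015), with no overlap. DNAJC19, part of the motor that imports proteins into mitochondria, went from 262 to 530 (median 303) to 125 to 230 (median 169), a fall of 0.88 ± 0.18 (SE; limma adjusted p = 0.00060), also with no overlap. Thus DNAJC15 and DNAJC19, both mitochondrial, were called in opposite directions. In the libraries without a title ending, 2 healthy and 4 NaCl, DNAJC19 differed by -0.59 and was not called.

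DNAJC9, a histone chaperone, fell by 0.40 ± 0.15 (SE; limma adjusted p = 0.033), from a median of 96.7 to 74.1 normalized reads. The call was lost without healthy replicate 3 or 5 or NaCl replicate 2, 3, 4 or 5, with limma adjusted p between 0.054 and 0.071, and in both subsets by title ending. DNAJB13, a protein of the ciliary axoneme, was at -0.97 ± 0.41 (SE) with a limma adjusted p of 0.052, so it was not called. It was called without healthy replicate 5 or 6 or NaCl replicate 1, 4 or 5, at -1.08 to -1.23. The 5 detected markers of ciliated cells summed to a median of 109 TMM-scaled RPM in healthy and 42.7 in NaCl, with FOXJ1 and RSPH1 listed at 0, and their part in the values of DNAJB13 and HSPB11 was not tested.

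BAG3 links HSP70 to small heat shock proteins and to selective autophagy, and is a known target of the heat shock response. It had 823 to 1426 normalized reads in healthy (median 1334) and 1191 to 8777 in NaCl (median 4186). NaCl replicate 1 lay inside the healthy range, and the other 6 NaCl libraries lay above it. BAG3 rose by 1.70 ± 0.33 (SE; limma adjusted p = 0.00039). Within the libraries without a title ending the log2 difference was 1.86 (limma adjusted p = 0.074, from 2 healthy and 4 NaCl libraries). BAG6, which guards newly made membrane proteins, was called at 0.38 ± 0.14 (SE; limma adjusted p = 0.023) but stood at -0.07 scaled by total reads, and in neither subset by title ending was it called. BAG2 was at 0.00 over all libraries, -0.67 in libraries without a title ending and 0.84 in those with one, where it was called (limma adjusted p = 0.014).

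Of the HSPB genes, 2 had enough reads for the test: HSPB11 was lower in NaCl and HSPB8 was not called. Since HSPB11 is also known as a subunit of the intraflagellar transport machinery, the 2 genes say little of small heat shock proteins as a family. HSPB8, the small heat shock protein that pairs with BAG3, had 2006 to 4244 normalized reads in healthy (median 3331) and 2457 to 10115 in NaCl (median 3873). It was not called at 0.37 ± 0.26 (SE; limma adjusted p = 0.23), and the sign turned to -0.09 scaled by total reads. The 9 detected muscle markers, a list that was added because muscle holds small heat shock proteins, summed to 478 to 1844 TMM-scaled RPM in healthy (median 1143) and 347 to 4166 in NaCl (median 609), and their part in the HSPB values was not tested. HSPB11 had the largest fall of any member: 195 to 391 normalized reads in healthy (median 280) against 19.5 to 58.8 in NaCl (median 46.2). The lowest healthy library was above the highest NaCl library, and the fall was 2.92 ± 0.26 (SE) on the log2 scale (limma adjusted p = 2.3e-07), with values of -2.40 without and -3.18 with a title ending.

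Of the 8 chaperonin members tested, 7 rose by similar amounts and 1 was not called. TCP1, CCT2, CCT3, CCT4, CCT5, CCT7 and CCT8 were all called higher, with log2 differences from 1.00 (CCT8) to 1.27 (CCT5), and also when scaled by total reads (0.54 to 0.81). TCP1 had 3030 to 4162 normalized reads in healthy (median 3392) and 5163 to 8728 in NaCl (median 8122), with no overlap, a rise of 1.11 ± 0.14 (SE; limma adjusted p = 5.9e-06). CCT5 went from 2592 to 3387 (median 2798) to 5231 to 8545 (median 7074), a rise of 1.27 ± 0.14 (SE; limma adjusted p = 1.4e-06). CCT8 alone of the 7 overlapped, since its lowest NaCl value of 3605 was below its highest healthy value of 3826. CCT6B, a copy of the sixth subunit known from the testis, was at -0.32 ± 0.23 (SE; limma adjusted p = 0.24), and CCT6A was listed at 0.

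Within a library the 7 subunits spread by 0.14 to 0.52 on the log2 scale in 34 of 35 libraries, and by 0.79 in healthy replicate 6, from -0.23 to 0.56. Relative to each gene's healthy mean, the 7 subunits of NaCl replicate 1 lay between 0.48 and 0.83 on the log2 scale, the lowest of the NaCl group, and those of NaCl replicate 5 between 1.11 and 1.49. Over all 7 NaCl libraries the median subunit ran from 0.62 to 1.24. In healthy it ran from -0.21 to 0.21, so the groups did not overlap. With MSC the median subunit ran from 0.20 to 1.19, with ceftaroline from 0.38 to 1.03 and with both from 0.22 to 0.87. MSC replicate 6 and ceftaroline replicate 7 held the lowest values of their groups for the subunit median, at 0.20 and 0.38.

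**Figure D2:**
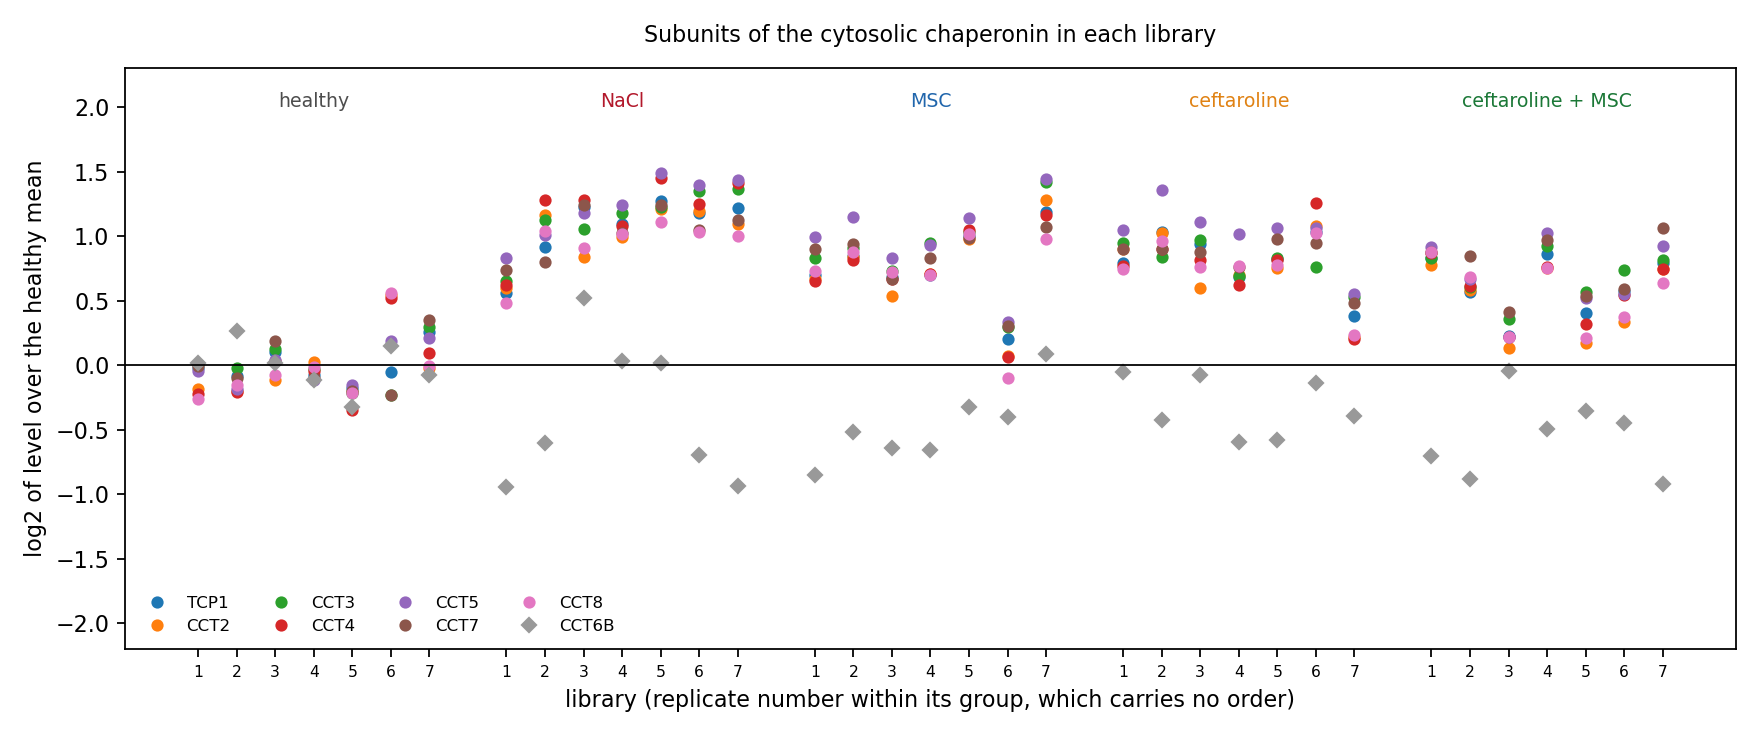
Log2 of each chaperonin subunit's level (TMM-scaled RPM) over its healthy mean (vertical axis) in each of the 35 libraries (horizontal axis, by group and replicate number; 1 point a subunit, CCT6B as grey diamonds). The 7 coloured subunits spread most within healthy replicate 6 (-0.23 to 0.56) and lie between 0.48 and 1.49 in every NaCl library, while CCT6B mostly lies below 0; scaled by total reads the 7 subunits stay higher in NaCl than in healthy.

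The FKBP isomerases split. FKBP5, an HSP90 co-chaperone of steroid receptors that glucocorticoids induce, had the largest rise of any member. It had 439 to 2435 normalized reads in healthy (median 1180) and 1965 to 7319 in NaCl (median 4361), so the ranges overlapped, and it rose by 2.00 ± 0.37 (SE; limma adjusted p = 0.00027). The rise was 1.41 without and 2.57 with a title ending. FKBP1A, the FK506-binding protein that also attaches to ryanodine receptors, rose by 0.78 ± 0.14 (SE; limma adjusted p = 0.00021), without overlap, and was not called scaled by total reads (0.33). FKBP9, an isomerase of the ER lumen, fell by 1.21 ± 0.25 (SE; limma adjusted p = 0.00057), from 506 to 946 (median 750) to 162 to 532 (median 314) with overlap. FKBP9 differed by -2.01 without and -0.49 with a title ending. FKBP10, an ER isomerase of collagen folding, was at -0.59 with a limma adjusted p of 0.052. It was called without healthy replicate 6 or NaCl replicate 1, 3, 6 or 7 (-0.64 to -0.70), in 1 limma fit over all 35 libraries (-0.63, adjusted p = 0.040) and scaled by total reads (-1.05). The other 4 tested FKBP genes, FKBP4, FKBP7, FKBP14 and FKBP1B, lay between -0.39 and 0.17 and were not called.

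All 3 measured protein disulfide isomerases were higher in NaCl, without overlap, which held for 14.7% of all genes. PDIA3, which forms and reshuffles disulfide bonds of glycoproteins, had 5577 to 8144 normalized reads in healthy (median 6409) and 13103 to 18145 in NaCl (median 14842), a rise of 1.20 ± 0.13 (SE; limma adjusted p = 1.9e-06). PDIA4 went from 2736 to 4792 (median 3784) to 8617 to 15463 (median 10530), a rise of 1.52 ± 0.17 (SE; limma adjusted p = 2.9e-06). PDIA5 rose by 0.66 ± 0.12 (SE; limma adjusted p = 0.00020) and was not called scaled by total reads, at 0.20.

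Chaperone and folding genes outside the name rule were taken from a list of 48 names, of which 21 had enough reads for the test. Of these, 10 were higher in NaCl and 1 was lower, against the same 29.7% and 30.9% of all genes, with a median log2 difference of 0.35. With total-read scaling, 6 were higher and 4 lower, beside the 15.3% and 45.4% of all genes. The secretory pathway genes MANF and SDF2L1, both induced by ER stress, rose by 2.11 ± 0.20 and 1.67 ± 0.28 (SE; limma adjusted p = 5.7e-07 and 0.00012). Other genes of the ER on the list differed among themselves. PPIB rose by 1.24, while ERP29, ERP44 and TXNDC5, at 0.07, 0.12 and 0.16, were not called. CHORDC1, an HSP90 co-chaperone, rose by 1.80 ± 0.26 (SE; limma adjusted p = 2.7e-05). SIL1, the exchange factor of HSPA5, fell by 1.34 ± 0.18 (SE; limma adjusted p = 1.1e-05). TCP11L1, matched by name only, fell by 1.37 ± 0.20 (SE; limma adjusted p = 2.8e-05), from a median of 386 to 148 normalized reads.

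The NaCl libraries were uneven in BAG3, HSPA8 and HSPB8. In TMM-scaled RPM, BAG3 was at 128, 661, 927, 444, 289, 382 and 490 in NaCl replicates 1 to 7. HSPA8 was at 36.1, 90.5, 124, 77.4, 40.8, 28.7 and 85.0 in the same order. HSPB8 was at 265, 538, 1068, 371, 404, 310 and 424. NaCl replicate 3 was the highest library of its group for all 3 genes, and for FKBP4, at 1253, while NaCl replicate 1 was the lowest for BAG3 and HSPB8. These genes were picked out after their values were seen. Other members had another order: DNAJA1 was highest in NaCl replicate 2 (61.2, beside 58.0 in replicate 3), and DNAJB5 was lowest in NaCl replicate 3 (36.9). NaCl replicate 3 held the highest level of 10 of the 60 tested members, beside 13.3% of 9765 genes with reads in all libraries. For NaCl replicate 5 this was 18 members, beside 17.3% of those genes. NaCl replicate 1 held the lowest of 19 members, beside 19.6% of those genes.

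**Figure D3:**
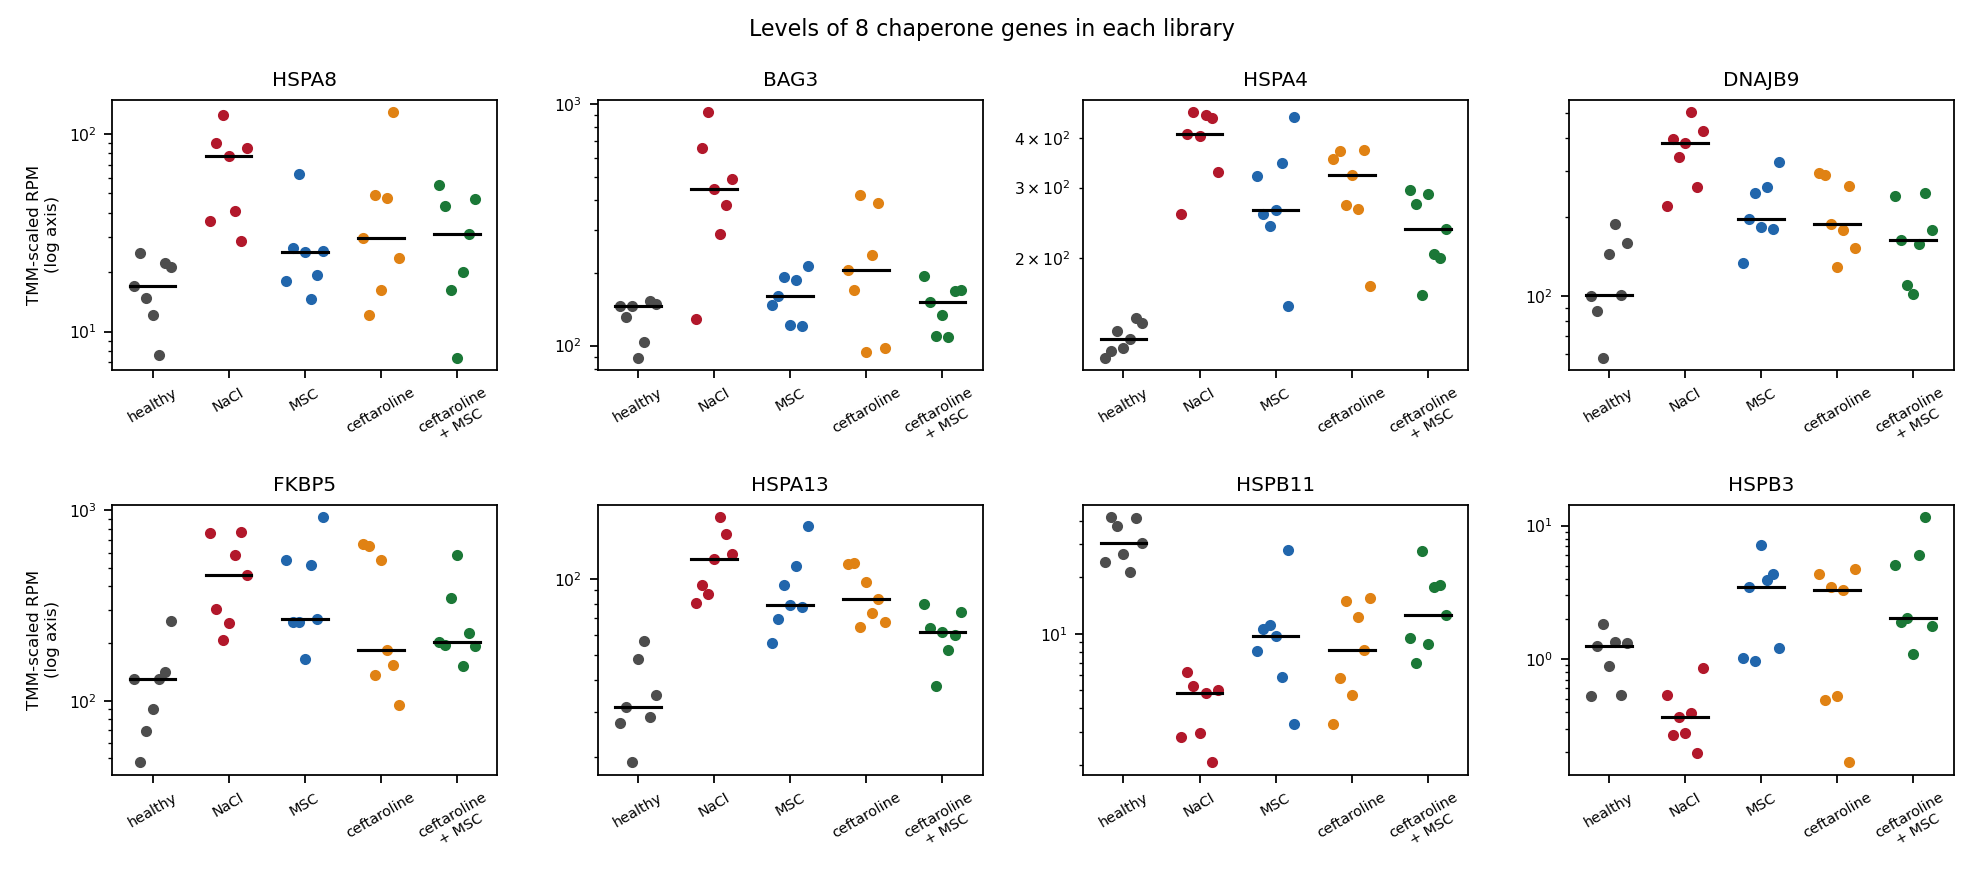
Levels of 8 members (vertical log axes, TMM-scaled RPM) in each library of the 5 groups (points in replicate order, which carries no meaning; black bars are group medians). HSPA8, HSPA4, DNAJB9 and HSPA13 are higher in every NaCl library than in every healthy library, HSPB11 is lower in every one, and in these genes, BAG3 and FKBP5 the medians of the 3 treated groups lie between those of healthy and NaCl; HSPB3 is shown although its reads were below the test minimum.

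No member passed limma's adjusted test between MSC and NaCl. That was 0 of 60 tested members beside 0.0% of all 9446 genes, with a lowest member adjusted p of 0.16. At an unadjusted p under 0.05, limma gave 12 members, 20.0% of them, beside 17.7% of all genes. edgeR on the recovered reads also called 0 members, beside 0.0% of all genes, while DESeq2 called 5 members beside 3.69%. In 1 limma fit over all 35 libraries 3 members were called, beside 2.92% of 10345 genes, and scaled by total reads 1, beside 3.11%. The authors' deposited table has 6 members at an adjusted p under 0.05, beside 3.33% of its genes. The members' median log2 difference was -0.18 and that of all genes 0.01. Scaled by total reads these were 0.12 and 0.31, so the sign of the members' median turns with the scaling, and it lay below the median of all genes in both.

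The members with the lowest p were BAG3, HSPA2, HSPA8 and DNAJB9, with lower values in MSC, and HSPB11, with higher values. BAG3 had 1211 to 8856 normalized reads in NaCl (median 4240) and 1150 to 2021 in MSC (median 1556), and its log2 difference was -1.36 ± 0.34 (SE; limma adjusted p = 0.16). The lowest NaCl library, replicate 1, lay within the MSC range, and without NaCl replicate 1 it was -1.64 (limma adjusted p = 0.037). DESeq2 gave -1.55 with an adjusted p of 0.0031, and the authors' deposited table gives -1.55 with an adjusted p of 0.0026. HSPA8 had 273 to 1189 normalized reads in NaCl (median 740) and 138 to 586 in MSC (median 239), a log2 difference of -1.31 ± 0.36 (SE; limma adjusted p = 0.16; DESeq2 adjusted p = 0.029). HSPA2 was at -1.29 ± 0.33 and DNAJB9 at -0.74 ± 0.22 (SE; limma adjusted p = 0.16 for each). DESeq2 gave them adjusted p of 0.020 and 0.042, and HSPA2 was also called in 1 limma fit over all 35 libraries (adjusted p = 0.028). All 3 of these also overlapped between the groups. HSPB11 was higher in 6 of 7 MSC libraries than the NaCl mean, at 1.20 ± 0.39 (SE; limma adjusted p = 0.18; DESeq2 adjusted p = 0.032).

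The other panel genes were not called with MSC either. FKBP5 ran from 166 to 926 TMM-scaled RPM in MSC (median 269) and from 208 to 768 in NaCl (median 456), and the ranges overlapped along most of their length. PDIA4 ran from 626 to 1495 with MSC (median 1274) and from 905 to 1633 in NaCl (median 1101). The 8 chaperonin members were all negative with MSC, from -0.47 (CCT4) to -0.10, with a median of -0.26, and none was called. Their median was 0.04 when scaled by total reads.

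HSPB3, a small heat shock protein of muscle, was below the test minimum and is given because its values stood out after they were seen. It had 2 to 7 reads per library in NaCl (24 reads in all) and 9 to 96 in MSC (260 in all). In TMM-scaled RPM that is 0.20 to 0.85 in NaCl and 0.97 to 7.20 in MSC, with no overlap, while healthy libraries lay between 0.53 and 1.83. With no filter on low values the log2 difference was 2.40 ± 0.46 (SE; limma adjusted p = 0.19), and in 1 limma fit over all 35 libraries it was 2.47 ± 0.59 (SE; adjusted p = 0.026). The authors' deposited table gives 2.96 with an adjusted p of 0.00034. At these read numbers a few reads decide a value.

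Ceftaroline against NaCl gave 0 called members of 60 with limma, beside 0.0% of all 9614 genes, with a lowest member adjusted p of 0.14. At an unadjusted p under 0.05, limma gave 10 members, beside 18.3% of all genes. edgeR called 0 members beside 0.0% of all genes, and DESeq2 called 3 members beside 5.51%. In 1 limma fit over all libraries 1 member was called, beside 3.14%. The authors' deposited table has 4 members, beside 4.69% of its genes. The members' median log2 difference was -0.12 and that of all genes 0.02. They were 0.12 and 0.26 when scaled by total reads. This comparison shares its NaCl libraries with the MSC comparison, so the values of both are set side by side below without a test of their likeness.

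DNAJB9 had 2587 to 5871 normalized reads in NaCl (median 4520) and 1541 to 3406 with ceftaroline (median 2193). Its log2 difference was -0.78 ± 0.23 (SE; limma adjusted p = 0.14; DESeq2 adjusted p = 0.033), beside -0.74 for MSC. HSPA2 was at -1.21 ± 0.40 (SE; limma adjusted p = 0.16, and 0.038 in 1 fit over all libraries), beside -1.29 for MSC, and DNAJC15 at -0.30 ± 0.11 (SE; limma adjusted p = 0.18; DESeq2 adjusted p = 0.037), beside -0.13. DNAJB5 was at -0.64 ± 0.24 (SE; limma adjusted p = 0.19), beside -0.42. HSPB11 was at 1.02 ± 0.37 (SE; limma adjusted p = 0.19; DESeq2 adjusted p = 0.046), beside 1.20. Each of these genes overlapped between ceftaroline and NaCl.

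HSPA8 and BAG3 were uneven with ceftaroline. HSPA8 had 141 to 1519 normalized reads (median 343) beside 340 to 1465 in NaCl (median 913), a log2 difference of -0.90 ± 0.48 (SE; limma adjusted p = 0.34). Ceftaroline replicate 6 alone had 129 TMM-scaled RPM of HSPA8, above every NaCl library, where the other 6 ceftaroline libraries had 12.1 to 49.2. BAG3 was at -1.04 ± 0.43 (SE; limma adjusted p = 0.23). Ceftaroline replicate 6 also held the highest HSPA2 (15.0), FKBP4 (1279) and HSPA4L (13.5) of its group, and the highest level of 20 of 60 members, beside 20.7% of the genes with reads in all libraries. HSPB3 was at 0.17 to 4.73 in ceftaroline, with 3 libraries no higher than 0.52 and 4 above every NaCl library, and the authors' deposited table gives 2.55 with an adjusted p of 0.014. With no filter on low values its log2 difference was 1.75 ± 0.64 (SE; limma adjusted p = 0.23). In 1 limma fit over all libraries it was 1.76 ± 0.59 (SE; adjusted p = 0.079), so HSPB3 was called in neither fit.

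Adding MSC to ceftaroline gave 0 called members of 62 with limma, beside 0.0403% of all 9924 genes. At an unadjusted p under 0.05, limma gave 6 members, beside 11.5% of all genes. edgeR called 0 members beside 0.111%, DESeq2 called 0 beside 0.998%, and the authors' deposited table has 0 beside 0.963%. The members' median log2 difference was -0.10 and that of all genes 0.00, and scaled by total reads they were 0.05 and 0.15.

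HSPA12B had the lowest p, with 557 to 1097 normalized reads with ceftaroline (median 709) and 889 to 1575 with both (median 1152). Its log2 difference was 0.62 ± 0.16 (SE; limma adjusted p = 0.24), and the ranges overlapped. HSPA13 was at -0.53 ± 0.18 (SE; limma adjusted p = 0.40) and CCT5 at -0.35 ± 0.14 (SE; limma adjusted p = 0.43). FKBP10 was at 0.63 ± 0.26 and DNAJC19 at 0.56 ± 0.24 (SE; limma adjusted p = 0.43 for each). HSPA8, with 7.37 to 55.2 TMM-scaled RPM with both and 12.1 to 129 with ceftaroline, was at -0.34. BAG3 ran from 109 to 194 with both, from 94.2 to 420 with ceftaroline and from 89.1 to 153 in healthy.

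**Figure D4:**
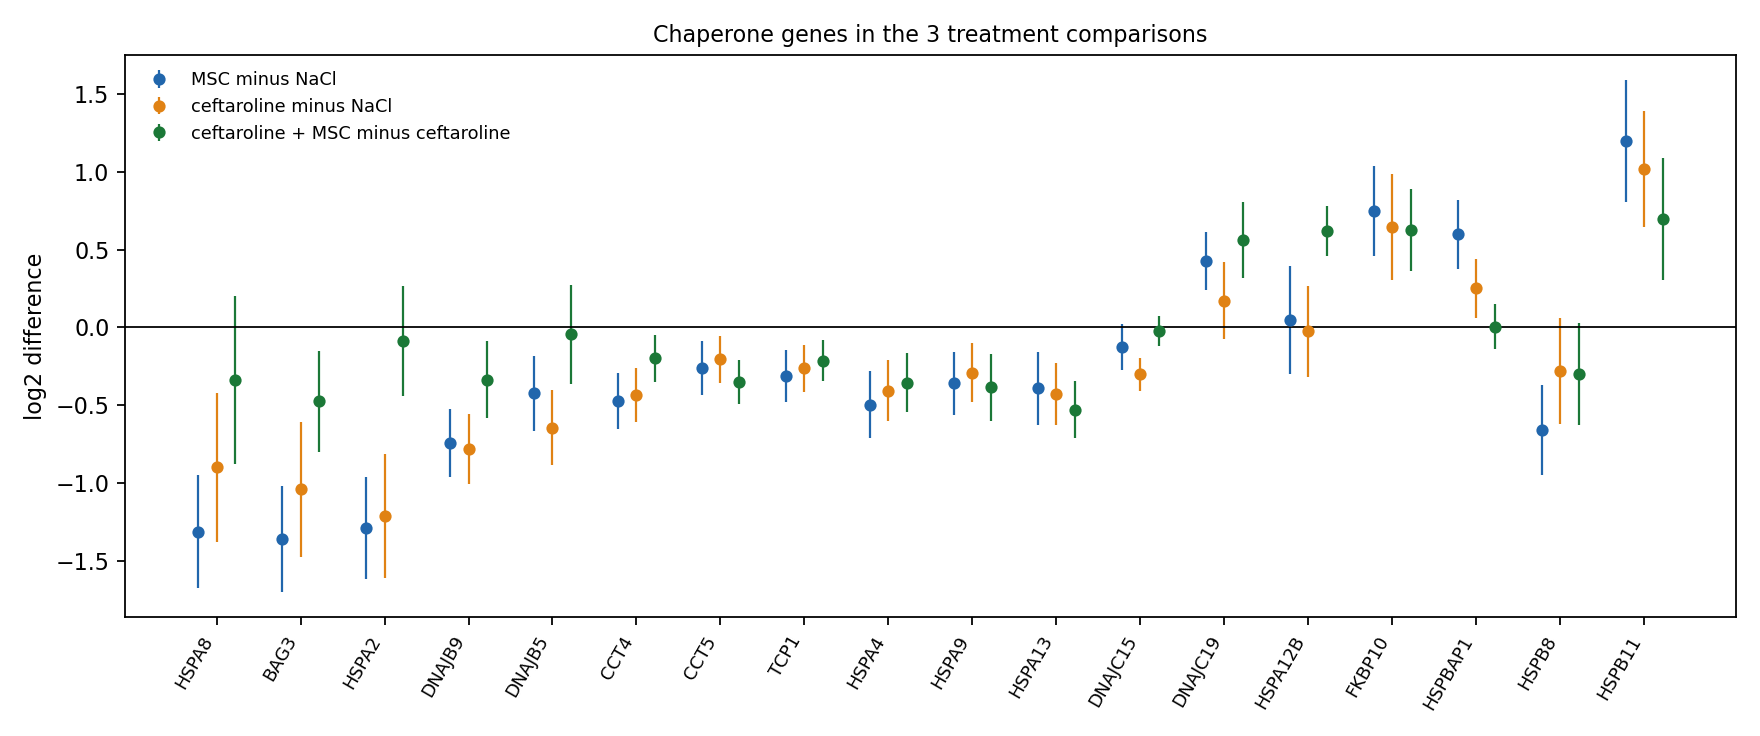
Log2 differences (vertical axis, log2 of normalized reads + 1; points are estimates, bars 1 standard error from limma, 7 libraries a group) of 18 members in the 3 treatment comparisons, of which MSC and ceftaroline share the NaCl libraries and ceftaroline is the control of the third. BAG3, HSPA8 and HSPA2 reach -0.90 to -1.36 against NaCl and HSPB11 1.02 to 1.20, and no point passed the adjusted limma test; scaled by total reads all points shift upward.

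The MSC effect was set against that in the presence of ceftaroline by a test of the difference of the log2 differences. It called 0 members of 60, beside 0.265% of all 9417 genes with limma, and edgeR called 0 beside 0.0212%. At an unadjusted p under 0.05 there were 2 members, beside 6.45% of all genes. These were HSPA2, with a difference of 1.20 ± 0.48 (SE; limma adjusted p = 0.51), and HSPBAP1, at -0.59 ± 0.27 (SE; limma adjusted p = 0.68). For BAG3 the difference was 0.88 ± 0.47, for HSF2 -0.34 ± 0.18 and for HSPA14 -0.29 ± 0.19 (SE). A difference between the MSC effects was not detectable in these members with 7 rabbits a group.

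Over the 5 groups the members described above fell into different orders of their medians. In TMM-scaled RPM, HSPA4 had medians of 125 in healthy, 408 in NaCl, 263 with MSC, 323 with ceftaroline and 236 with both, and the ranges of all 4 diseased groups lay above the healthy range of 113 to 142. PDIA3 had medians of 694, 1599, 1634, 1821 and 1502 in the same order, with every diseased library above every healthy one. HSPB11 had medians of 30.3, 4.81, 9.76, 8.19 and 12.6, and DNAJC12 of 51.9, 15.8, 22.2, 20.4 and 30.9. For BAG3 the medians were 146, 444, 161, 206 and 151, so that the NaCl group alone had its median above 206. The neighbouring treated groups overlapped in each of these genes.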

How the data were processed

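The authors deposited, per the file headers, 1 table per comparison for 23669 rabbit genes, holding a signal (reads per gene divided by the library's size factor) for 14 libraries, with log2 fold changes and their standard errors, a Wald score and p-values from DESeq2. The submitters' processing notes name DESeq2 1.24.0, TopHat2 2.1.1 and featureCounts 1.5.2. Per the labels' protocols, single reads of 75 bp came from stranded libraries, bcl2fastq2 2.18.12 split them by sample, and Cutadapt 1.15 trimmed them, leaving those over 10 bp. Neither genome build nor annotation is given in the sources used here. Size factors differ between tables. Values were whole multiples of 1 read's worth within a tolerance of 1e-06, which gave back the reads. No per-sample column was left unmapped.

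limma 3.58.1 (R 4.3.3), with an intensity trend, tested log2(signal + 1) for all genes with at least 10 normalized reads in at least 7 of 14 libraries, 7 against 7, two-sided and without covariates. Each rabbit is 1 sample. The difference between the MSC effects was tested as the difference of both estimates over the root of their summed squared errors. edgeR 4.0.16 (quasi-likelihood) and DESeq2 1.42.0 on recovered reads, a pseudocount of 10, no filter, thresholds of 0.01 and 0.1, 1 fit over all libraries, title endings, the mark S00 in a file label, each library left out and a replicate block were alternatives; scaling by total reads and, for disease, a block on title numbers alone were added after seeing the data. Levels across groups are TMM-scaled RPM (reads per 1000000 reads), where plain RPM had been planned. The limma and edgeR scripts were tested on simulated data.

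The members and gene lists were chosen with earlier results of these data known. Named genes are a panel of chaperones, the 8 largest called rises and 8 largest called falls with a mean of at least 50 normalized reads in the disease comparison, and the 5 members with the lowest p in each other comparison. Other members complete their families, and HSPB3, HSPA4, HSPA4L and FKBP4 were named after their values were seen. Sequences of the members were not used here.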

Additional observations from a re-analysis of the deposited data

Results flagged for a closer look

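Single libraries that stood far from the other 6 of their group were sought in 155 groups of 7, for the named members and HSPB3, and chance flags about 1 in 20 such groups. There were 7, all in TMM-scaled RPM. HSPA8 was at 63.0 in MSC replicate 3, where the other MSC libraries lay between 14.6 and 26.4. HSPA9 was at 83.7 in MSC replicate 6, below the others at 150.0 to 221.5. FKBP9 was at 109.3 in the same library, above the others at 28.9 to 51.0. HSPBAP1 was at 28.5 in MSC replicate 4, with the others at 12.1 to 16.6. CCT5 was at 464.5 in ceftaroline replicate 7, below the others at 642.2 to 812.6. DNAJC19 was at 56.7 in healthy replicate 6, with the others at 28.7 to 33.6, and HSPA14 was at 81.4 in that library, with the others at 42.3 to 51.4. Healthy replicate 6 is the only healthy library with a PG title ending. Without it, 30 members were called higher and 10 lower with disease, and the share of all genes in that fit is not given here.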

How the results depend on the processing

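The number of members called with disease stayed between 31 and 41 over the alternatives, within 1.5 times the 38 reported, and was 36 to 41 with each library left out in turn. It was 31 in the 2 healthy and 4 NaCl libraries without a title ending (26 higher, 5 lower, beside 20.6% and 16.8% of all genes). Scaled by total reads it was 41 (23 higher, 18 lower, beside 15.3% and 45.4% of all genes). The share of all genes under the other disease alternatives is not given here, so those counts are not set against it. Scaled by total reads, HSPB8 turned to -0.0872 and HSF2 to -0.391. HSF2 ran from -0.0195 (without healthy replicate 3) to 0.162 (without NaCl replicate 2) with each library left out, and was at -0.004175 without NaCl replicate 4; neither gene was called in any of these. With MSC, DESeq2 called 5 members, the single fit over all libraries 3 (BAG3, HSPA2 and HSPB3) and the scaling by total reads 1 (HSPBAP1, beside 3.11% of all genes), where limma called 0; with each library left out the count ran from 0 to 1, BAG3 being called without NaCl replicate 1. With ceftaroline, DESeq2 called 3 members and the single fit over all libraries 1 (HSPA2), where limma called 0. The causes of these changes were not tested. Whether title numbers pair the libraries is not settled: the correlations of same-numbered libraries ran from -0.38 to 0.48. Numbers 1 and 7 in the MSC comparison matched best with their own number, at 0.44 each. So did number 6 with ceftaroline and numbers 3 and 5 with MSC added to ceftaroline, while the other numbers did not. With a replicate block 0 members were called in each treatment comparison. In the disease comparison, titles without an ending share no number between the groups. A replicate block on the numbers alone, whatever letters stand around them (6 healthy and 4 NaCl libraries, added after seeing the data), gave 35 called members, and the same libraries without it 36. Low read numbers limit HSPB3 and HSF4, and 21 matching names at 0 could not be measured.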

Other observations

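The members below the test minimum in the disease comparison were CCT8L2, DNAJC27, DNAJC5B, DNAJC5G, HSF4, HSF5, HSPB3 and HSPB9. HSPB3, in the limma fit with no filter on low values, was lower in NaCl than in healthy by a log2 difference of -1.17 ± 0.33 (SE; adjusted p = 0.0071). In 1 limma fit over all 35 libraries it was at -1.25 ± 0.59 (SE; adjusted p = 0.065) and was not called. Its read totals are not scaled for depth, and the median library had 9527492 reads in NaCl and 15675806 with ceftaroline. HSPB3 had 84 reads over the 7 healthy libraries, 24 over NaCl, 260 over MSC, 307 over ceftaroline and 438 over ceftaroline plus MSC. In that last group the libraries ran from 1.09 to 11.6 TMM-scaled RPM, above every NaCl library.

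CRYAB, a small heat shock protein outside the name rule, had mean levels of 578 in healthy, 951 in NaCl, 287 with MSC, 326 with ceftaroline and 277 with both, in TMM-scaled RPM. With disease it was at 0.35 ± 0.41 (SE; limma adjusted p = 0.48). Against NaCl it was at -1.41 ± 0.46 with MSC and -1.46 ± 0.54 with ceftaroline (SE; limma adjusted p = 0.18 and 0.19). Adding MSC to ceftaroline gave -0.03 ± 0.42 (SE; limma adjusted p = 0.98). CRYAB was not called in any of these comparisons.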
